A study of Mus musculus with 401 samples.

Results

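Oocyte meiotic arrest depends on an exchange of cyclic nucleotides between the oocyte and its cumulus cells, and 9 genes of this exchange were followed here: the connexins Gja1, Gja4 and Gjc1, the peptide ligand Nppc and its receptor Npr2, the guanine nucleotide enzyme Impdh2, and the cyclic AMP genes Gpr3, Adcy3 and Pde3a. They were chosen by name, and all 9 were found by their Ensembl identifiers in both count tables, which together held 43633 genes. The libraries were total RNA of single germinal vesicle (GV) oocytes and of the pool of cumulus cells around each, from oocyte-cumulus complexes of B6D2F1 mice, made by RamDA-seq, which reads full-length total RNA without molecular identifiers. The first set held Young (2 months, 16 oocyte and 15 cumulus libraries of 2 mouse labels), Middle (9 months, 14 and 15 of 4), Old (14 months, 16 and 16 of 2 labels, one of which, Old1_2, names a pair of mice) and CR mice (9 months, calorie restriction begun in adulthood, 27 and 25 of 3). The second set held mice at 2 months (24 and 24 libraries of 5 mouse labels), 4 months (39 and 40 of 8), 9 months (16 and 16 of 4) and 14 months (16 and 16 of 5), and mice at 2 months without hyperovulation (32 and 32 of 8). All groups but CR were fed ad libitum (AL), and all but the last were hyperovulated, with eCG or CARD HyperOva, and the labels do not say which mouse received which. Complexes were handled in medium with a phosphodiesterase inhibitor. Each library was a test unit, and since several came from 1 mouse, p-values measure the spread between libraries of few mice.

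In the follicle, NPPC from granulosa cells activates the guanylyl cyclase NPR2 of cumulus cells, and the cyclic GMP passes through gap junctions into the oocyte, where it holds back the phosphodiesterase PDE3A. The receptor GPR3 keeps the G protein of adenylyl cyclase active, and the cyclic AMP made by cyclases such as ADCY3 then keeps the oocyte in prophase until the luteinizing hormone surge lowers cyclic GMP. Junctions between oocyte and cumulus cells are built of GJA4 and those among granulosa cells mainly of GJA1, and IMPDH2 supplies guanine nucleotides for cyclic GMP.

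Library totals ran from 510029 to 4536690 counts, with medians of 1986202 to 2332126 for oocytes and 854688 to 1288956 for cumulus pools outside CR, and of 3578882 and 2019007 in CR. Oocyte libraries carried cumulus markers (10 genes such as Fshr, Inha and Kitl, all above 0 in each group) at a mean of 3.36% to 6.35% of the cumulus level in the first set and 1.27% to 1.88% in the second, highest in Old. Oocyte markers (12 genes such as Zp3 and Gdf9) had medians of 2.25 to 6.86 CPM in cumulus pools against 17640 to 23690 CPM in oocytes. The Middle oocyte library GVM047 correlated more with cumulus (r = 0.937) than with oocyte libraries (r = 0.744). Its complex was left out, which left 399 of 401 libraries. In a cumulus pool, fewer cells of a type and less RNA per cell cannot be told apart.

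In GRCm38, the connexin genes lie at chr10:56377330-56402513 (Gja1, ENSMUSG00000050953, plus strand), chr4:127311421-127314039 (Gja4, ENSMUSG00000050234, minus) and chr11:102799579-102819700 (Gjc1, ENSMUSG00000034520, minus). The cyclic GMP genes lie at chr4:43631935-43651244 (Npr2, ENSMUSG00000028469, plus), chr1:86666291-86670571 (Nppc, ENSMUSG00000026241, minus) and chr9:108560286-108565584 (Impdh2, ENSMUSG00000062867, plus). The cyclic AMP genes lie at chr4:133209340-133212536 (Gpr3, ENSMUSG00000049649, minus), chr12:4133103-4213525 (Adcy3, ENSMUSG00000020654, plus) and chr6:141249269-141507448 (Pde3a, ENSMUSG00000041741, plus). RefSeq promoter windows matched 7 of the 9 symbols, all but Gjc1 and Pde3a. These also passed a test with calorie restriction, and no window of them can be shown. The 250 bases before the RefSeq start are shown for 5 genes that passed a test with hyperovulation or calorie restriction, so that those that moved together can be set side by side (GRCm38.p6, 5′ to 3′ on the gene's own strand). Capitals mark matches, on either strand, to TGACG (the core of the cyclic AMP response element), GGGCGG (an Sp1 site), TGANTCA (AP-1), AAGGTCA (the site of NR5A receptors) or TAATTG (homeobox factors such as NOBOX). Among 32851 promoter windows of this length, 17.8%, 32.7%, 6.75%, 4.08% and 7.17% held these motifs, in that order.
Gja1, chr10:56377050-56377299, plus strand: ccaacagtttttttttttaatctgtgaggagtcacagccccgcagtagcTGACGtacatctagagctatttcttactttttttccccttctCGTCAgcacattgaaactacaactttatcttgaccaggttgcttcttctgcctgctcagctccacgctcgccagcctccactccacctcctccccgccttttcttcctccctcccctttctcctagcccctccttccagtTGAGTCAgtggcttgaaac
Npr2, chr4:43631685-43631934, plus strand: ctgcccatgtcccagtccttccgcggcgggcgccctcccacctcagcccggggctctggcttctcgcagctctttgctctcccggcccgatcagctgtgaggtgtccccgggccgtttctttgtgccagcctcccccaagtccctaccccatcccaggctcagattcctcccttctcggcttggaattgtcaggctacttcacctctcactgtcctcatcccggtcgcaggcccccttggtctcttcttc
Impdh2, chr9:108560186-108560435, plus strand: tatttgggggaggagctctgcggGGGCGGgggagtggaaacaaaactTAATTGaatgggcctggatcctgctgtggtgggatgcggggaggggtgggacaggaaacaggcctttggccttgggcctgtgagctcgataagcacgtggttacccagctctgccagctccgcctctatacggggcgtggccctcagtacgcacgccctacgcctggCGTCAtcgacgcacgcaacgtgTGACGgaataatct
Gja4, chr4:127314040-127314289, minus strand: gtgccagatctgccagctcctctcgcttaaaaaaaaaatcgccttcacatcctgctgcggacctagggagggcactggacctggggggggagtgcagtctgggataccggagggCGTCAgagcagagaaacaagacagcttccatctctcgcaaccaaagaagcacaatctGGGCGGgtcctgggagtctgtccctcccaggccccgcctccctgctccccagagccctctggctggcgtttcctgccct
Gpr3, chr4:133212537-133212786, minus strand: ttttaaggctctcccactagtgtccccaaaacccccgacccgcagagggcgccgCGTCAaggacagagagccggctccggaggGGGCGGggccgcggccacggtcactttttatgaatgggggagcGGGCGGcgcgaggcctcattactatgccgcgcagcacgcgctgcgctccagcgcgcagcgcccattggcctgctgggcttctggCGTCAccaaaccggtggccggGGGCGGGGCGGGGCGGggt
The window of Gja1 held 2 matches to TGACG and 1 to TGANTCA, and that of Impdh2 held 2 to TGACG, 1 to GGGCGG and 1 to TAATTG. Those of the oocyte genes held 1 match to TGACG and 1 to GGGCGG for Gja4, and 2 and 5 for Gpr3, where 3 of the GGGCGG matches overlap. No match to any of the 5 was found before Npr2. The window of Impdh2 extends past the gene start given above, since the RefSeq start lies further downstream. A match is a description of letters and not of a site in use.

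The first question was which cell of the complex holds each transcript. Of the 9 members, 5 were higher in cumulus cells (Gja1, Npr2, Nppc, Impdh2 and Adcy3) and 3 were higher in oocytes (Gja4, Gpr3 and Pde3a) in each of the 9 groups, all of them past the threshold of edgeR (adjusted p under 0.05). The result for Gjc1 differed from group to group. Most genes differ between these cells: of all genes tested, 85.6% passed in Young, 84.6% in Middle, 82.0% in Old, 87.8% in CR, 88.4% at 2 months, 89.9% at 4 months, 86.4% at 9 months, 86.4% at 14 months and 89.0% without hyperovulation. Levels between genes are compared in RPKM, which scales counts by gene length and library total, and changes of a gene in CPM, which scales counts by the library total after TMM normalization. Summed markers are in CPM of the library total alone, without TMM. The plot of levels by cell type shows the members falling into a cumulus and an oocyte group.

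**Figure D1:**
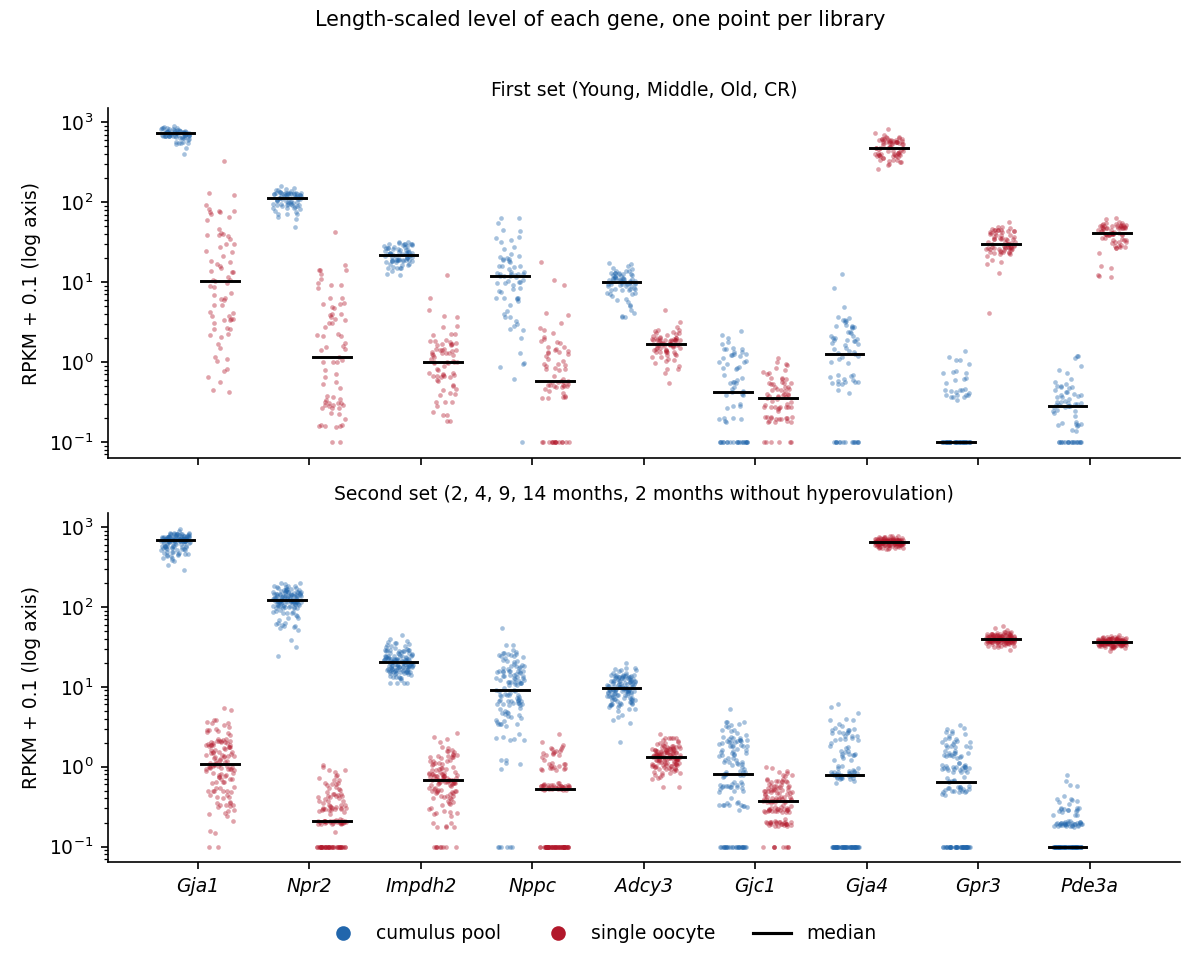
Level of each member (RPKM + 0.1, log axis) in cumulus pools (blue) and single oocytes (red) of the first set (top) and second set (bottom), 1 point per library, with a bar at the median. Gja1 and Npr2 stand high in cumulus pools, Gja4, Gpr3 and Pde3a in oocytes, the Gjc1 points lie low in both, and Gja1 in oocytes lies higher in the first set.

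Among the connexins, Gja1 had group means of 545 to 731 RPKM in cumulus cells and was higher there in 70 of 70 complexes of the first set and 127 of 127 of the second. In oocytes its means were 0.737 to 2.13 RPKM in the second set but 15.6 to 51.8 in the first, so that the oocyte level was 0.101% to 0.316% of the cumulus level in one set and 2.23% to 7.26% in the other. Cumulus markers in oocyte libraries were also higher in the first set, and their part in this level was not tested. Gja4 showed the opposite placement, at 374 to 671 RPKM in oocytes and 0.603 to 1.86 RPKM in cumulus cells, and was the highest of the members in oocytes. Gjc1 stayed under 2 RPKM in both cells. It was higher in cumulus cells than in oocytes in Young (log2 difference, oocyte minus cumulus, -2.30 ± 0.31 (SE)), at 2 months (-1.99 ± 0.23), at 4 months (-0.87 ± 0.25) and without hyperovulation (-2.07 ± 0.24), with adjusted p of at most 0.00105 by edgeR. It did not pass the test in Middle, Old, 9 months or 14 months (adjusted p of 0.301, 0.682, 0.360 and 0.978). In CR it was higher in oocytes (1.23 ± 0.34, adjusted p = 0.000842), a call that was lost with library totals in place of TMM (0.62, adjusted p = 0.0872), where the median of all genes moved from -0.10 to -0.71.

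Of the cyclic GMP genes, Npr2 was the second highest member in cumulus cells, with group means of 85.4 to 139 RPKM. In oocytes its means were 0.161 to 0.283 RPKM in the second set and 1.58 to 7.09 RPKM in the first. Npr2 was higher in cumulus cells in all 197 complexes with both libraries. Impdh2 had means of 17.3 to 26.3 RPKM in cumulus cells and 0.546 to 2.32 in oocytes. The deposited counts shared reads between genes, and the Impdh2 pseudogene Impdh2-ps is a near copy, so the split between them is uncertain. Npr2, Impdh2, Adcy3, Gpr3 and Pde3a also overlap other genes on either strand, and since no use of strand is stated, reads of the partners cannot be told apart. The ligand Nppc, known for its place in mural granulosa cells, was measured in cumulus pools at means of 8.89 to 20.8 RPKM and was higher there in 67 of 70 and 121 of 127 complexes. Its spread was wide, from 0.850 to 25.4 CPM over the 24 cumulus libraries at 2 months.

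Of the cyclic AMP genes, Gpr3 and Pde3a were nearly restricted to oocytes. In the second set, group means were 39.7 to 40.5 RPKM for Gpr3 and 35.9 to 37.1 RPKM for Pde3a, neighbours whose spreads between libraries overlapped, while cumulus means were 0.534 to 1.19 and 0.0425 to 0.106 RPKM. Both were higher in the oocyte in all 197 complexes. Adcy3 stood apart from them: it was higher in cumulus cells in all 197 complexes, at 8.77 to 11.4 RPKM against 1.16 to 1.75 RPKM in oocytes. The oocyte level was 10.2% to 17% of the cumulus level in the 9 groups, above the share of the cumulus markers in each set. In cumulus cells, Adcy3 and Nppc were neighbours in the order of levels, and their libraries overlapped in every group.

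The genes most alike in pattern were sought among 6828 oocyte and 7285 cumulus genes with a mean of at least 20 CPM, as correlations over the 127 oocyte or 128 cumulus libraries of the second set after each group's mean was subtracted. These libraries share mice and vary in depth, so the values are descriptions. Npr2 lay closest to Sema7a (Pearson r = 0.874), then Nav2 (0.686) and Sema4d (0.682). For Gja1 the nearest gene was Epn2 (0.699), for Nppc it was Marcks (0.722), for Adcy3 it was Phldb1 (0.680), and for Impdh2 it was its own near copy Impdh2-ps (0.713). In oocytes, Rbm38 was nearest to Gja4 (0.661), Zdhhc8 to Gpr3 (0.636) and Uhrf1 to Pde3a (0.630). Gjc1 had no close neighbour, with Per3 the nearest at 0.383. Its group means in these cumulus libraries were only 1.22 to 9.27 CPM, and so few counts limit any correlation.

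The next question was whether hyperovulation itself moves these genes. In cumulus cells at 2 months, hyperovulation came with higher Npr2 and Gja1 and lower Impdh2, and 4 of the 9 members passed the test where 13.2% of all genes did (3 higher and 1 lower, 5 by DESeq2). Npr2 ran from 120.2 to 678 CPM (median 404) in 32 libraries without hyperovulation and from 381 to 870 CPM (median 631) in 24 with it. The means were 399 ± 144 and 631 ± 124 CPM (SD), a log2 difference of 0.67 ± 0.12 (SE, edgeR adjusted p = 0.000116). The groups overlapped, with 23 of the 24 hyperovulated libraries above the median of the others and 10 above their highest. By mouse, means were 218 to 520 CPM without and 495 to 716 CPM with hyperovulation.

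Gja1, the main connexin of granulosa cells, ran from 2972 to 8440 CPM (median 5338) without and from 5859 to 8645 CPM (median 7451) with hyperovulation. The means were 5584 ± 1296 CPM (SD, n = 32) and 7449 ± 760 CPM (SD, n = 24), a log2 difference of 0.42 ± 0.08 (SE, edgeR adjusted p = 0.000166). All 24 hyperovulated libraries lay above the median of the others, which reached far lower. Impdh2 went the other way, from 80.7 ± 22.3 CPM (SD, range 37.6 to 131, median 80.1) to 57.4 ± 14.0 CPM (range 34.3 to 85.9, median 54.3), a log2 difference of -0.49 ± 0.10 (SE, edgeR adjusted p = 0.000587). All 5 mouse means with hyperovulation (46.4 to 66.5 CPM) lay under the lowest of the 8 without (68.1 to 106 CPM). The share of all genes with such mouse means was not counted, so this is a description. Summed with Impdh2-ps, the means of Impdh2 were 117 and 88.0 CPM, a log2 ratio of -0.41.

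**Figure D2:**
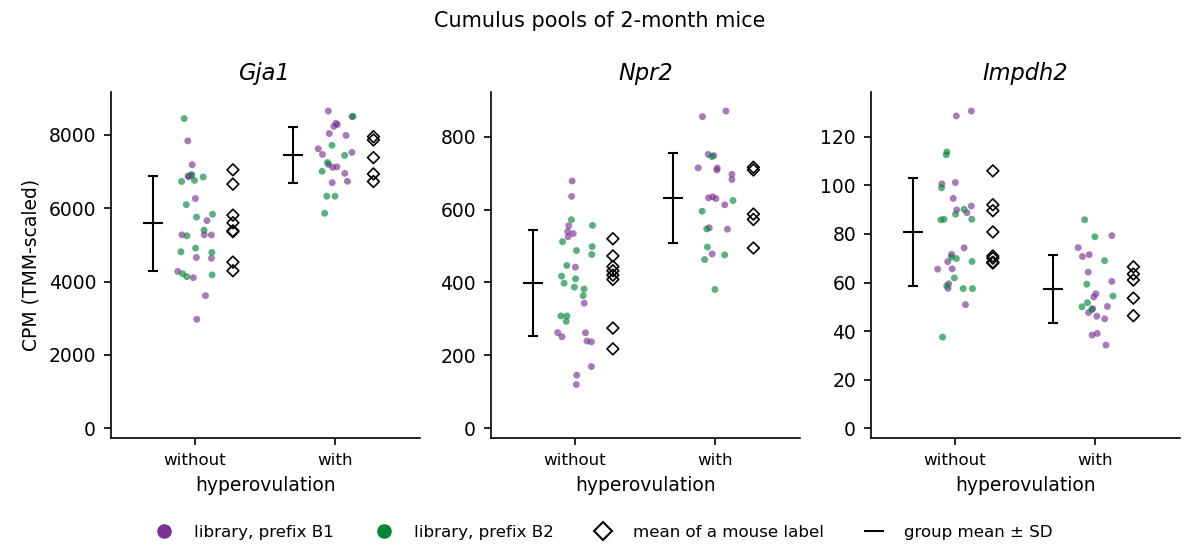
Gja1, Npr2 and Impdh2 in cumulus libraries at 2 months (CPM) without and with hyperovulation, 1 point per library colored by label prefix, diamonds for the means of mouse labels, and the group mean with its SD. The Gja1 and Npr2 points sit higher with hyperovulation and those of Impdh2 lower, with overlap in each.

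The label prefixes B1 and B2 of the second set split each group. Within them the log2 ratios of mean CPM were 0.86 and 0.34 for Npr2, 0.48 and 0.31 for Gja1, and -0.60 and -0.32 for Impdh2, each in the direction of the pooled value. With counts summed per mouse label, none of these calls held (adjusted p of 0.0960 for Npr2, 0.131 for Gja1 and 0.157 for Impdh2 by edgeR), at log2 differences of 0.64, 0.42 and -0.44. Of all genes, 230 of 24161 passed at this setting. Marker sums, unlike gene levels, were not scaled by TMM. The summed cumulus markers, none of the 10 at 0, had a median of 5832 CPM without and 8114 CPM with hyperovulation, and the theca and stroma markers 17.4 and 13.7 CPM. Their part in these differences was not tested.

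The remaining members in cumulus cells did not move past the threshold except Gja4, whose level there was close to 0. Gja4 had 28 counts in all over 32 libraries without and 49 over 24 with hyperovulation, at medians of 0 and 1.68 CPM (adjusted p = 0.0440 by edgeR), and the call held in 5 of the 13 fits that left out 1 mouse label. Of these libraries, 3 of 32 and 5 of 24 had over 3 counts, so no fold is given. Gpr3 was as sparse, with 90.5 counts without and 30 with hyperovulation (adjusted p = 0.0677 by edgeR and 0.0476 by DESeq2). Adcy3 (log2 difference 0.22 ± 0.14, SE), Nppc (0.23 ± 0.30) and Gjc1 (0.16 ± 0.24) had adjusted p of 0.320, 0.673 and 0.727 by edgeR.

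In oocytes, 0 of the 9 members passed between these groups by edgeR, 0 at an unadjusted p under 0.05 and 0 by DESeq2, where 0.0299% of all genes passed. The oocyte genes differed by little: the log2 differences were 0.02 ± 0.03 (SE) for Gja4, 0.02 ± 0.05 for Gpr3 and -0.02 ± 0.04 for Pde3a. The difference of the effect between the cells, oocyte minus cumulus, was tested as an interaction, in which 4.05% of all genes and 3 members passed: Gja4 (adjusted p = 0.0128, negative), Gpr3 (adjusted p = 0.0211, positive) and Gja1 (-0.99 ± 0.30, adjusted p = 0.0317). For Gja4 and Gpr3 no size is given, since most cumulus libraries of both groups held at most 3 counts. Gja1 had oocyte medians of 8.84 CPM without and 7.06 CPM with hyperovulation. With the complex as a block none passed (adjusted p of 0.0837, 0.119 and 0.0765 by edgeR). For Gja1 in oocytes the log2 ratios within prefixes were -1.83 and 1.5, opposite in sign. For Npr2 and Impdh2 the interaction did not pass (-0.52 ± 0.49 and 0.51 ± 0.27, adjusted p of 0.757 and 0.381), so their change is not shown to differ between the cells. Here too the test could decide little, since oocytes held few counts. Over 32 libraries without and 24 with hyperovulation these were 48.33 and 42 for Npr2, and 123.5 and 105 for Impdh2.

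Of the other genes of the pathway (79 genes, 78 of them in the tables: other connexins, natriuretic peptides and guanylyl cyclases, adenylyl cyclases, phosphodiesterases, kinases and guanine nucleotide genes), 55 were tested in cumulus cells and 3 rose and 3 fell with hyperovulation. Among them, Impdh1, the sister enzyme of Impdh2, rose from 97.1 ± 28.3 to 159.5 ± 33.4 CPM (SD; log2 0.72 ± 0.10 (SE), edgeR adjusted p = 1.25e-06), while Impdh2 fell. Gucy1a1, a subunit of soluble guanylyl cyclase, rose from 52.3 ± 19.5 to 94.4 ± 28.4 CPM (log2 0.85 ± 0.13), and the phosphodiesterase Pde7b fell from 110.0 ± 109 to 27.5 ± 30.5 CPM (log2 -1.95 ± 0.42), with a spread as wide as its mean. Of all genes, 13.2% passed in this cumulus comparison. In oocytes none of 62 passed by edgeR or DESeq2, with 10 at an unadjusted p under 0.05.

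Age was followed in hyperovulated mice of both sets. In cumulus cells, Gjc1 fell with age and was the only one of the 9 members to pass, in each of the comparisons 2 with 4 months (0.519% of all genes passed), 2 with 9 months (1.92%), 2 with 14 months (1.7%) and Young with Old (3.96%). The comparisons of the second set share the libraries at 2 months. Gjc1 ran from 2.23 to 25.7 CPM (median 8.54) in 24 libraries at 2 months, from 0 to 10.8 CPM (median 2.62) in 40 at 4 months, from 0 to 9.71 CPM (median 0) in 16 at 9 months and from 0 to 6.11 CPM (median 0) in 16 at 14 months. No library at 2 months lacked a count, against 6 of 40, 9 of 16 and 11 of 16 at the later ages. The log2 differences from 2 months were -1.47 ± 0.25 (SE, adjusted p = 0.00217), -2.65 ± 0.41 (adjusted p = 0.000210) and -2.69 ± 0.42 (adjusted p = 0.000143) by edgeR. Libraries with over 3 counts numbered 20 of 24 at 2 months, 12 of 40 at 4 months, 1 of 16 at 9 months and 3 of 16 at 14 months, so the sizes of these falls are imprecise beyond their SE. The steps from 4 to 9 and from 9 to 14 months were not tested.

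**Figure D3:**
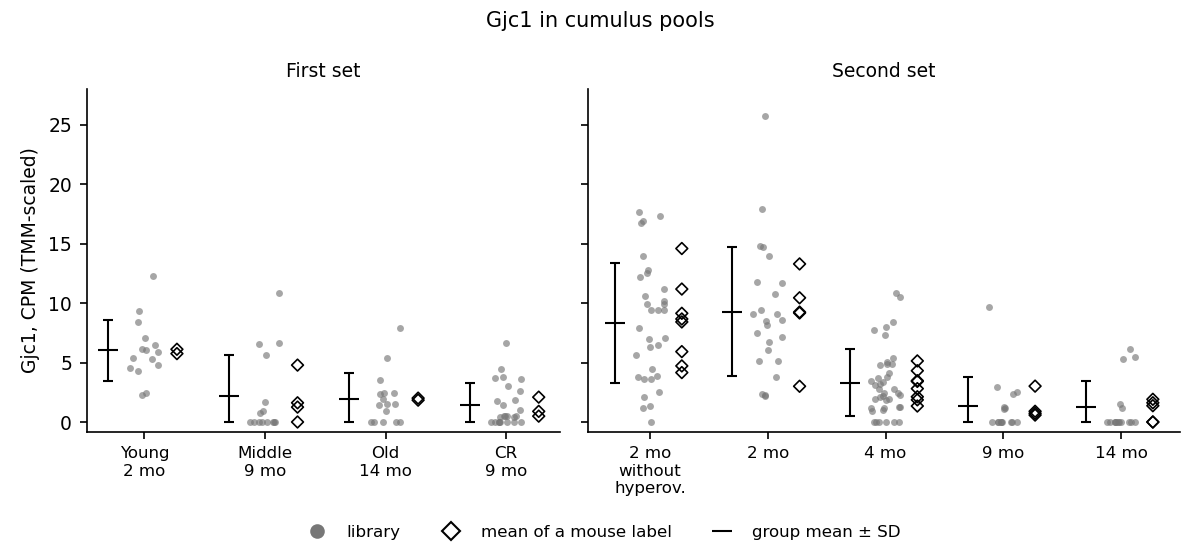
Gjc1 in cumulus libraries (CPM) of the 9 groups of both sets, 1 point per library, diamonds for the means of mouse labels, and the group mean with its SD, drawn no lower than 0. The groups at 2 months, Young and without hyperovulation sit highest, and most points of 9 and 14 months lie at 0.

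The counts behind Gjc1 were few: 194 in all at 2 months, 113 at 4 months, and 18 each at 9 and 14 months. Means of mouse labels were 3.01 to 13.3 CPM at 2 months, 1.34 to 5.14 at 4 months, 0.583 to 3.02 at 9 months and 0 to 1.91 at 14 months, so that all 5 labels at 14 months lay under the lowest at 2 months. The share of all genes with labels so placed was not counted, so this is a description. Within prefixes B1 and B2 the log2 ratios were -1.02 and -2.30 at 4 months, -3.31 and -2.53 at 9 months and -3.41 and -2.61 at 14 months. The second-set calls held whichever mouse label was left out. With counts summed per mouse label, the comparison with 14 months held (adjusted p = 0.0355 by edgeR) and those with 4 and 9 months did not (0.495 and 0.0923), and the gene did not reach the count required by filterByExpr. Of all genes, the summed counts gave 30 of 22862 past the test at 14 months, 0 of 24847 at 4 months and 2 of 23024 at 9 months.

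In the first set, Gjc1 ran from 2.30 to 12.3 CPM (median 5.86) in 15 Young cumulus libraries and from 0 to 7.86 CPM (median 1.51) in 16 Old ones, a log2 difference of -1.56 ± 0.37 (SE, edgeR adjusted p = 0.0117). This call was lost without mouse label Young2 (-1.51, adjusted p = 0.416), without Old3 (-1.52, adjusted p = 0.0680) and with counts summed per mouse label (-1.61, adjusted p = 0.109). In Middle the range was 0 to 10.9 CPM (median 0), and the difference from Young was -1.46 ± 0.49 (adjusted p = 0.123), which passed without Middle1 (-2.26, adjusted p = 0.00686). In that comparison, 0 of the 9 members passed by edgeR and by DESeq2, 1 at an unadjusted p under 0.05, and 1.46% of all genes passed. CR cumulus libraries had a median of 0.487 CPM, with the range 0 to 6.65. Mice at 2 months without hyperovulation had a median of 8.65 CPM (range 0 to 17.6), near that of the hyperovulated mice.

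No other member passed the test in cumulus cells between these ages. Between 2 and 14 months the log2 differences were -0.09 ± 0.07 (SE) for Gja1, -0.21 ± 0.09 for Npr2 (adjusted p = 0.305), -0.11 ± 0.11 for Impdh2, -0.02 ± 0.14 for Adcy3 and 0.69 ± 0.30 for Nppc (adjusted p = 0.257 by edgeR). Nppc ran from 0.850 to 25.4 CPM at 2 months and from 0 to 55.9 CPM at 14 months. Of the pathway genes in cumulus cells, Pde7b (-1.65 ± 0.38) and Impdh1 (-0.42 ± 0.10) fell from 2 to 14 months, with 1 higher and 2 lower of 47, and the nucleotide exporter Abcc5 rose from Young to Middle (0.62 ± 0.15, 1 of 50). Between 2 and 4 months 1 of 55 rose, between 2 and 9 months 1 of 47 rose, and between Young and Old 0 of 49 passed by edgeR, 9 at an unadjusted p under 0.05 and 2 by DESeq2.

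In oocytes, Gja4 fell with age by a small amount. It ran from 1007 to 1302 CPM (median 1123) in 24 libraries at 2 months and from 899 to 1199 CPM (median 1036) in 16 at 14 months, with means of 1132 ± 71.5 and 1027 ± 72.9 CPM (SD) and a log2 difference of -0.14 ± 0.03 (SE, edgeR adjusted p = 0.0249). Of the 16 libraries at 14 months, 15 lay under the median at 2 months, and all 5 mouse means (979 to 1068 CPM) lay under the lowest of the 5 at 2 months (1095 CPM). How many of all genes were so placed was not counted, so this is a description. Both prefixes gave a log2 ratio of -0.13. The call was lost without 2mo2 (-0.14, adjusted p = 0.0537), 2mo34 (-0.11, 0.183), 14mo39 (-0.13, 0.0648) or 14mo40 (-0.11, 0.209) and with counts summed per mouse label (-0.13, adjusted p = 0.248). At 4 and 9 months the means were 1092 ± 87.1 and 1063 ± 88.5 CPM.

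In that comparison 2 of the 9 members passed, where 1.14% of all genes did. The other was Gja1, low in oocytes, which ran from 0.501 to 38.3 CPM (median 7.06) at 2 months and from 8.60 to 50.3 CPM (median 18.5) at 14 months (log2 1.49 ± 0.30 (SE), edgeR adjusted p = 0.00459). Over 3 counts were held by 20 of 24 and 16 of 16 of these libraries. All 16 libraries at 14 months lay above the median at 2 months. Within prefixes the log2 ratios were 2.39 and 0.38, and with counts summed per mouse label the adjusted p was 0.0900. The summed cumulus markers in these oocyte libraries had medians of 94.0 CPM at 2 months and 121.8 CPM at 14 months, and their part in the Gja1 difference was not tested. By edgeR and DESeq2, 0 of the 9 members passed between 2 and 4 months or 2 and 9 months in oocytes (1 each at an unadjusted p under 0.05), where 0.0126% and 0.16% of all genes did. Gpr3 and Pde3a had group means of 109 to 111 and 459 to 471 CPM over these ages, and their log2 differences between 2 and 14 months were -0.03 ± 0.05 (SE) and 0.00 ± 0.04.

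The first set held the same comparison with a wider spread. Gja4 in oocytes ran from 890.4 to 1218 CPM (median 1052) in 16 Young and from 379 to 1120 CPM (median 834) in 16 Old libraries. The log2 difference was -0.37 ± 0.11 (SE, edgeR adjusted p = 0.0356), where 7.39% of all genes passed and Gja4 alone of the 9 members. It was lost without Young1 (-0.39, adjusted p = 0.112), Young2 (-0.35, 0.355) or Old1_2 (-0.10, 0.940) and with counts summed per mouse label (-0.32, 0.699). Gpr3 (109 ± 29.6 to 73.5 ± 30.6 CPM (SD), log2 -0.58 ± 0.20) had an adjusted p of 0.0600 by edgeR and 0.0235 by DESeq2, and Pde3a (489 ± 162 to 357 ± 126 CPM, log2 -0.46 ± 0.20) had 0.133 by edgeR. Both depended on the 2 Old labels: without Old3, Gpr3 (-0.78, adjusted p = 0.0171) and Pde3a (-0.69, 0.0346) passed, and without Old1_2 the differences were -0.21 (0.926) and -0.06 (0.990). For Pde3a the difference was also over 1.5 times as large without Young2 (-0.71, 0.202). The summed oocyte markers in these libraries also had a lower median in Old, 17640 CPM (lowest 7756) against 22520 CPM in Young (lowest 14770), and the summed cumulus markers a higher one, 382 against 122.0 CPM. Their part in these differences was not tested. Of the cumulus genes, Gja1, Npr2 and Impdh2 did not pass (adjusted p of 0.140, 0.116 and 0.107). Impdh2 had a log2 difference of 1.07 ± 0.43, which passed without Old3 (1.43, adjusted p = 0.0239) and changed sign without Old1_2 (-0.30, adjusted p = 0.971). Between Young and Middle oocytes 0 members passed by edgeR (0.0% of all genes), 1 at an unadjusted p under 0.05 and 1 by DESeq2, which was Gja4 (-0.22, adjusted p = 0.0421).

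Of the pathway genes, 59 were tested between Young and Old oocytes, where 7.39% of all genes passed. The kinase subunit Prkar2b (0.79 ± 0.25 (SE), edgeR adjusted p = 0.0484) and the guanine nucleotide enzyme Gmps (0.30 ± 0.09, adjusted p = 0.0395) rose, the adenylyl cyclase Adcy8 fell (-0.67 ± 0.16, adjusted p = 0.0209), and in all 4 rose and 1 fell. With counts summed per mouse label, 0 of 23100 genes passed between Young and Old by edgeR. In these libraries oocyte markers were lower and cumulus markers higher in Old, as given above, and their part was not tested. Between Young and Middle 0 of 59 passed by edgeR and by DESeq2, with 4 at an unadjusted p under 0.05. In second-set oocytes 0 passed by edgeR between 2 months and 4 months (of 62), 9 months (of 59) or 14 months (of 60), with 4, 6 and 11 at an unadjusted p under 0.05 and 0, 0 and 1 by DESeq2.

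The last comparison set CR against AL mice of the same age of 9 months. Unlike those of AL mice, most deposited RPKM values of CR mice did not match the deposited counts, for a reason not known. In oocytes, where 30% of all genes passed, 4 of the 9 members did: Gja4 and Gpr3 were lower and Pde3a and Gjc1 higher in CR. Gja4 ran from 723 to 1095 CPM (median 922) in 14 Middle and from 481 to 804 CPM (median 671) in 27 CR libraries. The means were 907 ± 114 and 655 ± 77.0 CPM (SD), a log2 difference of -0.47 ± 0.06 (SE, edgeR adjusted p = 3.08e-08). All 27 CR libraries lay under the Middle median and 23 under the lowest Middle library. Gpr3, the receptor that keeps cyclic AMP high, went from 108 ± 19.8 CPM (range 74.2 to 138, median 109) to 74.5 ± 11.6 CPM (range 47.7 to 97.2, median 75.9), a log2 difference of -0.53 ± 0.08 (SE, edgeR adjusted p = 9.55e-07), and 12 of 27 CR libraries lay under the Middle range.

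Pde3a, which breaks down cyclic AMP in the oocyte, was higher in CR. It ran from 328 to 615 CPM (median 512) in Middle and from 341 to 854 CPM (median 676) in CR, with means of 494 ± 84.9 and 659.8 ± 107 CPM (SD) and a log2 difference of 0.42 ± 0.09 (SE, edgeR adjusted p = 0.000194). Of the 27 CR libraries, 23 lay above the highest Middle library. Gjc1 stayed sparse, at 29 counts over 14 Middle and 221 over 27 CR libraries, and ran from 0 to 2.09 CPM (median 0.681) and from 0.557 to 5.12 CPM (median 2.35), a log2 difference of 1.35 ± 0.31 (SE, edgeR adjusted p = 0.000497). Over 3 counts of Gjc1 were held by 2 of 14 Middle and 24 of 27 CR libraries. For each of the 4 genes, the means of all 3 CR mice lay outside the range of the 4 Middle mice. The 4 genes had passed on these same libraries, and the share of all genes with such mouse means was not counted. This placement of mouse means is therefore a description and no further support. The mean of Middle3 rested on a single oocyte library once complex GVM047 was left out.

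**Figure D4:**
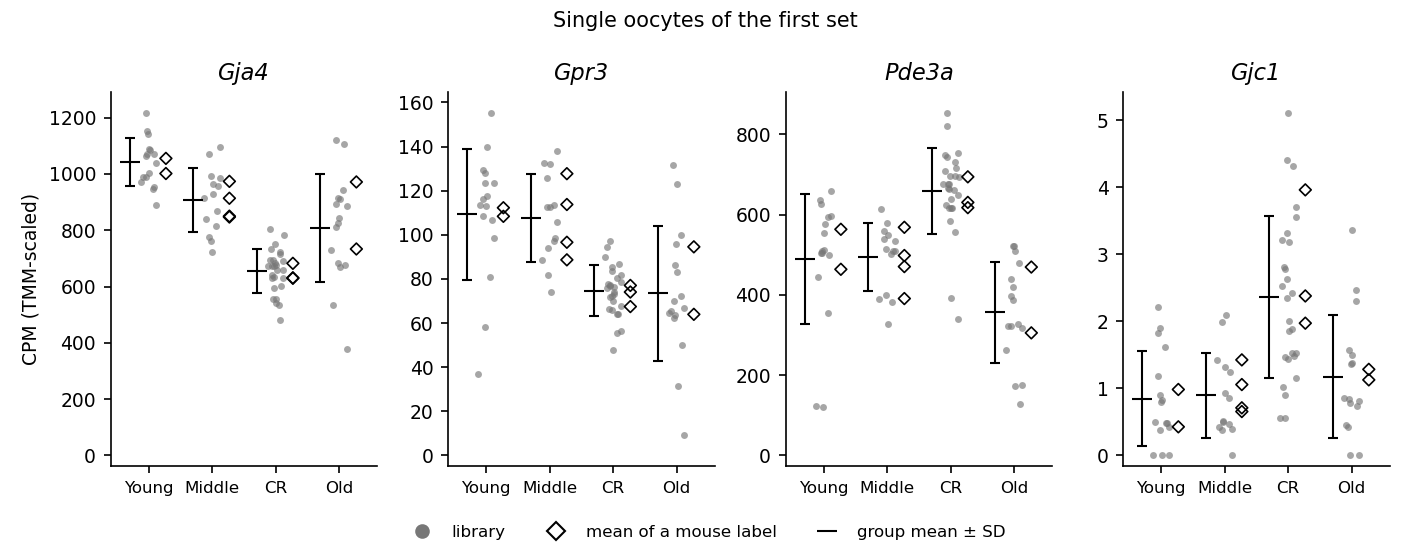
Gja4, Gpr3, Pde3a and Gjc1 in oocyte libraries of the first set (CPM) in Young, Middle, CR and Old, 1 point per library, diamonds for the means of mouse labels, and the group mean with its SD, drawn no lower than 0. The CR mean is the lowest for Gja4 (655 CPM) and the highest for Pde3a (659.8 CPM) and Gjc1 (2.36 CPM).

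With counts summed per mouse label, Gja4 (-0.42, adjusted p = 0.0372) and Gjc1 (1.6, adjusted p = 0.0258) passed by edgeR, and Gpr3 (-0.51, adjusted p = 0.0539) and Pde3a (0.47, adjusted p = 0.0614) did not. With complex GVM047 included, Gja4 (-0.32, adjusted p = 0.163) and Gpr3 (-0.38, adjusted p = 0.112) were lost, and the cumulus genes Gja1 (-2.51), Npr2 (-2.73) and Impdh2 (-1.05) passed. CR oocyte libraries held 2752043 to 4536690 counts and Middle ones 1903858 to 2624876, so that depth and diet cannot be told apart. The summed oocyte markers had medians of 20820 CPM in Middle and 21540 CPM in CR. Of 61 pathway genes tested in oocytes, 19 were higher and 6 lower in CR, where 30% of all genes passed. The connexin Gjb2 rose from 17.3 ± 11.3 to 64.9 ± 19.6 CPM (SD; log2 1.90 ± 0.22 (SE), edgeR adjusted p = 1.52e-09), and the adenylyl cyclase Adcy1 (0.98 ± 0.21) and the phosphodiesterase Pde10a (0.84 ± 0.16) also rose.

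In CR cumulus cells, Npr2 was the only member to pass, where 3.6% of all genes did. It ran from 421 to 724 CPM (median 591) in 15 Middle and from 232 to 589 CPM (median 442) in 25 CR libraries, with means of 576 ± 91.2 and 434 ± 98.3 CPM (SD) and a log2 difference of -0.41 ± 0.10 (SE, edgeR adjusted p = 0.0104). All 25 CR libraries lay under the Middle median, and 10 under the lowest Middle library. How many of all genes had libraries so placed was not counted. The call was lost without Middle1 (-0.37, adjusted p = 0.0586), Middle2 (-0.32, 0.218) or CR2 (-0.25, 0.110) and with counts summed per mouse label (-0.47, 0.477). Nppc, its ligand, ran from 0.767 to 34 CPM (median 6.47) in Middle and from 0.533 to 65.8 CPM (median 13.5) in CR (log2 1.11 ± 0.46, edgeR adjusted p = 0.175), and passed without CR3 (1.69, adjusted p = 0.0182). CR cumulus libraries held 1568223 to 2501005 counts and Middle ones 848243 to 1269680, so that depth and diet cannot be told apart here either. None of 54 pathway genes passed by edgeR or DESeq2, with 12 at an unadjusted p under 0.05.

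The difference of the CR effect between oocytes and cumulus cells was tested as an interaction. By edgeR 0 of the 9 members passed, where 12.7% of all genes did, and 1 had an unadjusted p under 0.05, which was Gjc1 (adjusted p = 0.0837). DESeq2 was not run on it. The changes of Gja4, Gpr3, Pde3a and Npr2 are therefore not shown to differ between the cells (adjusted p of 0.281, 0.403, 0.643 and 0.241). For Gja4, Gpr3 and Pde3a the test could decide little, since cumulus libraries held few counts. Over 15 Middle and 25 CR cumulus libraries these were 33 and 117 for Gja4, 5 and 20 for Gpr3, and 53 and 145.5 for Pde3a. The plot of fitted changes sets hyperovulation, age and diet side by side.

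**Figure D5:**
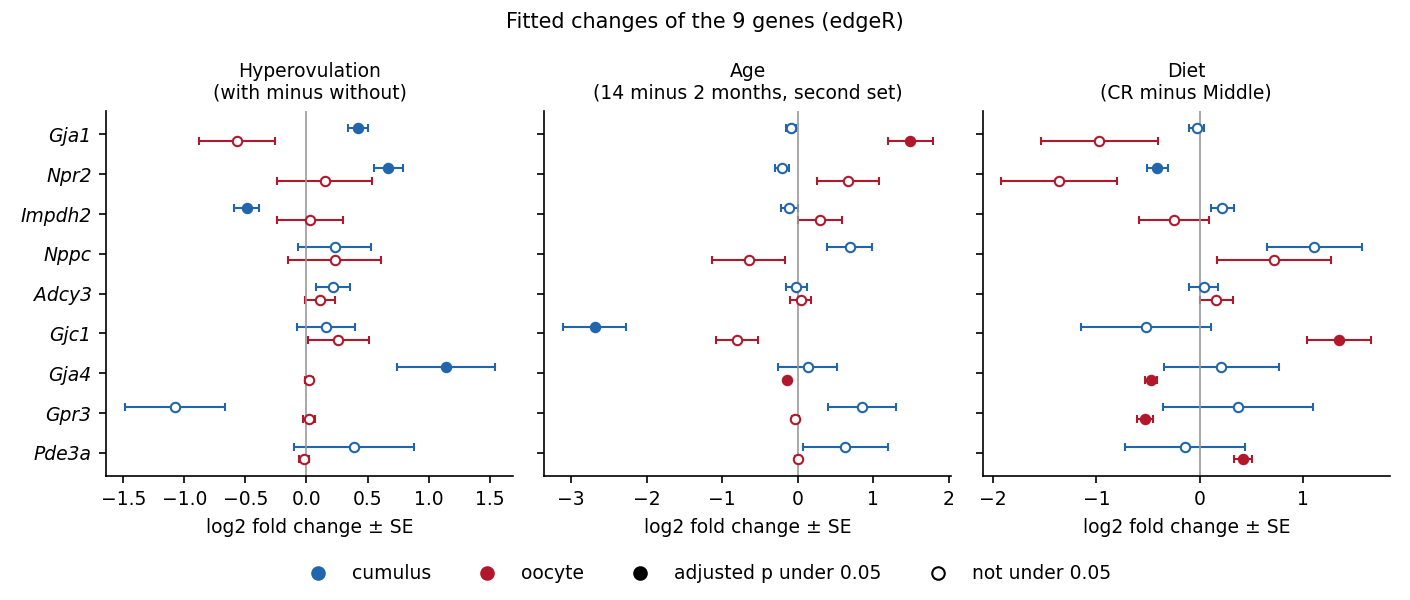
Log2 fold change with its SE (edgeR) of the 9 members in cumulus (blue) and oocyte libraries (red) for hyperovulation (with minus without), age (14 minus 2 months, second set) and diet (CR minus Middle), with filled points for an adjusted p under 0.05. Filled points number 4, 1 and 1 in cumulus cells and 0, 2 and 4 in oocytes, in that order, and the values of Gja4, Gpr3 and Pde3a in cumulus cells, where most libraries held few counts, are no measure of size. Values of Npr2, Nppc and Impdh2 in oocytes for hyperovulation and age, and of Gjc1 in both cells, also rest on few counts.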

How the data were processed

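RamDA-seq libraries of single GV oocytes and their cumulus cells were analysed from the tables deposited by the authors. Trimming by the authors used Fastq-mcf, alignment used HISAT2 2.0.5 on GRCm38, and featureCounts 1.5.1 gave the counts for GENCODE genes, reads of several places being divided between genes, so the deposited values are expected counts (36.8% and 35.1% of the nonzero values in the 2 sets were not whole). The authors also deposited RPKM values. Recalculated from the counts and gene lengths, these matched within 0.1% for all values of AL mice and for 0.763% of those of CR mice, so RPKM was recalculated here for all libraries. Why the CR values differ is not known, and all CR results rest on the deposited counts. CPM scales counts by the library total after TMM normalization, except for summed markers, where the library total alone was used. Symbols and coordinates came from GENCODE (43429 of 43633 identifiers found).

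Expected counts were rounded and tested with edgeR 4.0.16 in R 4.3.3 (TMM, quasi-likelihood F test, genes counted in 5 or more of the libraries compared, Benjamini-Hochberg over all genes tested, adjusted p under 0.05), 2 groups at a time, after the study's methods. The complex label pairs an oocyte library with the cumulus pool of the same follicle, so the cell type and interaction tests were also fitted with it as a block. Alternatives were DESeq2 1.42.0, filterByExpr, no filter, library totals, counts summed per mouse label, the label prefix as a covariate, all deposited libraries, and leaving out 1 mouse label at a time. The values within prefixes and the sum of Impdh2 and Impdh2-ps were added after seeing the data. The test was checked on simulated data, where it recovered most changed genes and more than the nominal share of the calls was false, so calls near the threshold are the least secure. No 2 of 4857 pairs of libraries within groups were duplicates. The members, lists and tests were chosen with earlier results of these data known. Statements that libraries or mouse means of a called gene lay apart use the libraries that called it. The share of all genes so placed was not counted, so they are descriptions. Named pathway genes are at most 3 per comparison, those past the test with the largest change and a mean of at least 8 CPM. Depth limits sparse genes: a floor of 3 counts per library was used, which covers counting error only.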

Additional observations from a re-analysis of the deposited data

Results flagged for a closer look

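Of 108 groups of mouse means in groups of 4 to 8 mouse labels, 5 had a label far from the others by Dixon's limit, and chance gives about 1 in 20. Gja1 in cumulus cells of 14mo41 had a mean of 5870 CPM against 7150 to 7290 in the other labels at 14 months. Gja1 in oocytes of 9mo22 had 18.9 CPM against 6.81 to 8.87. Gjc1 in cumulus cells of 9mo23 had 3.02 CPM against 0.583 to 0.900. Npr2 in cumulus cells of 14mo37 had 473 CPM against 556 to 576. Pde3a in cumulus cells of 2moNoH12, without hyperovulation, had 2.08 CPM against 0 to 0.593.

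The change with hyperovulation differed between oocytes and cumulus cells, in the interaction test by edgeR, for Gja4 (log2 -1.14, adjusted p = 0.0128), Gpr3 (1.14, adjusted p = 0.0211) and Gja1 (-0.99, adjusted p = 0.0317). With the complex as a block, the adjusted p values were 0.0837, 0.119 and 0.0765. Most cumulus libraries held at most 3 counts of Gja4 and Gpr3, so these 2 values give a direction and no size. The cause was not tested.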

How the results depend on the processing

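Of 25 counts of members called, 106 of 124 values under other settings and 109 of 124 with a mouse label left out lay within 1.5 times the reported count, and no call changed sign. Among members called under at least 1 setting, Impdh2 in oocytes, not called as reported, changed sign between Young and Old without Old1_2 (from 1.07 to -0.30, range -0.30 to 1.43 with a mouse label left out) and between Middle and CR without Middle4 (from -0.25 to 0.03, range -0.42 to 0.03). With counts summed per mouse label, 0 members were called in oocytes between Young and Old and between 2 and 14 months, 0 in cumulus cells between Young and Old, Middle and CR, 2 and 4 months, 2 and 9 months and with hyperovulation, and 2 in oocytes between Middle and CR. This setting has fewer samples. Of all genes it called 0 of 23100 in oocytes between Young and Old and 50 of 22659 between 2 and 14 months. In the cumulus comparisons it called 81 of 23091, 0 of 24657, 0 of 24847, 2 of 23024 and 230 of 24161, in that order. Between Middle and CR oocytes it called 2151 of 25276. With filterByExpr, which tests fewer genes, 0 were called in cumulus cells between Young and Old and between 2 months and 4, 9 or 14 months, and 2 in oocytes between Young and Old. DESeq2 called 1 member in oocytes between Young and Middle and 2 between Young and Old, and without a filter 0 were called between Young and Old. With a mouse label left out, counts ran from 0 to 4 in oocytes between Young and Old, from 4 to 5 between Middle and CR and from 1 to 2 between 2 and 14 months, and in cumulus cells from 0 to 1 between Young and Middle, from 0 to 1 between Young and Old, from 0 to 2 between Middle and CR and from 3 to 5 with hyperovulation. Where oocyte and cumulus libraries were paired by a block of their complex, or summed per mouse with a mouse block, the hyperovulation interaction called 0 members in place of 3, and the block changed no other count by over 1.5 times. The cause was not tested for any other setting. Depth limits Gja4, Gpr3 and Pde3a in cumulus cells, Gjc1 in both cells and Nppc in oocytes. It also limits Npr2, Impdh2 and, less so, Gja1 in second-set oocytes.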
